A study of Mus musculus with 145 samples.

Results

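Killer lectin-like receptors are C-type lectin-like proteins of the natural killer (NK) cell surface that some T cells and myeloid cells also carry. The 5 genes described here are Klrg1, Klrc1, Klrd1, Klrk1 and Klra3. They were chosen by name out of 19752 distinct mouse gene symbols in the annotation, with earlier results of these data known. Each had 1 probe set annotated to that symbol alone, out of 21425 such probe sets, so no choice among probe sets arose. Klra3 also shares 3 further probe sets with other genes, and those were not used.

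The NK gene complex on mouse chromosome 6 encodes inhibitory and activating receptors that let a killer cell read other cells. Klrc1 (NKG2A) forms an inhibitory receptor together with Klrd1 (CD94) and binds the MHC molecule Qa-1, while Klra3 (Ly49C) is an inhibitory receptor for classical MHC class I. Klrg1 is an inhibitory receptor for cadherins and a well-known marker of terminally differentiated effector CD8 T cells, and Klrk1 (NKG2D) is an activating receptor for the stress-induced Raet1, H60 and Ulbp1 proteins that signals through the adapters Hcst (DAP10) and, in mice, Tyrobp (DAP12).

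The data came from the microarray arm of the ImmGen consortium, in which sorted mouse immune and stromal cells were measured on 145 Affymetrix arrays in 65 groups. There were 12 groups of 1 array, 28 of 2, 23 of 3 and 2 of 4. The values are normalized intensities on a linear scale, and differences are given on the log2 scale, so that a log2 difference of 1 is a doubling. Nothing in the labels ties replicate arrays to different mice, and the p-values therefore cover the scatter among arrays, which may be technical.

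The groups compared were as follows. T.8Eff.Tbet- and T.8Eff.Tbet+ were OT1 CD8 effector cells from spleens of 45-day-old male B6 mice, on day 6 after infection with LisOVA, Listeria that carry ovalbumin, the antigen of the OT1 receptor. T.8EffKLRG1+CD127- and T.8MemKLRG1-CD127+ were CD8 cells from the same tissue, strain, sex and age, on day 8 after LisOVA. The Tbet- cells were sorted as CD45.1+ CD45.2- and the Tbet+ cells as CD45.2+ CD45.1-, and NK1.1+ cells were gated out of all 4 of these groups. The CD4 series held CD44- naive cells, and effectors on day 8 and memory cells on day 30 after lymphocytic choriomeningitis virus (LCMV), sorted on CD44, CD11a and CD49d, all from spleens of 6-week-old C57BL/6J mice (1 naive array was labelled C57BL/6), with NK1.1+ cells gated out. The cultured series held naive-sorted CD8 and CD4 lymph node cells of 6-week-old C57BL/6 mice after 1, 5, 24, 48 and 96 h with anti-CD3 and anti-CD28 beads, and controls whose label gives no time. The control groups carry the same treatment text as the stimulated groups, and they were taken as unstimulated by their titles alone.

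Fat macrophages (MF.AT) and CD11b- dendritic cells (DC.11b-) came from visceral fat of male C57BL/6J mice aged 45 to 52 days, and CD11b+ dendritic cells (DC.11b+) from males of 48 to 52 days whose strain is given as N/A. Liver macrophages with high or intermediate F4/80, CD11b+ lung macrophages, lung monocytes (Mo.Lu) and Ly6C+ blood monocytes (Mo.6+2-.BL) came from 6-week-old male C57BL/6 mice, as did the Mo.6+2+ monocytes of blood and of skin-draining and mesenteric lymph nodes. The marker label of Mo.6+2-.BL reads MHCII+, against its title. The liver group titled intermediate carries a marker label that reads low for F4/80. Thymic groups were MHCII-high medullary epithelium from 5-week-old C57BL/6 mice of mixed sex, as GFP+ knockout, GFP+ and GFP- cells, and MHCII-high and MHCII-low medullary epithelium of male C57BL/6 mice at 8 weeks; the labels do not name the knocked-out gene. The MHCII-high and MHCII-low groups at 5 and 8 weeks carry the same marker label (EpCAM+ Ly51+ MHCII+ Sca1+), and only their titles tell them apart.

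Array medians lay between 112 and 147, the median of all values was 126, and arrays of a group correlated at 0.922 or more. A level under 126 is called low below, since that is the middle of the distribution and the deposited values carry no detection call. The T cell marker lists, of 5 genes with probe sets, fitted the T cell labels, with summed intensities of 22651 to 23029 in the Tbet- and 20179 to 20991 in the Tbet+ effectors. The cells labelled as dendritic and CD11b+ in fat went partly against the label: summed dendritic cell markers were 2333 to 3645 in DC.11b+ and 8415 to 8674 in DC.11b-, while summed macrophage markers were 6022 to 7642 and 3358 to 3445 in the same order of groups. A receptor that is low in 1 of a pair of groups entered the test only through the group where it is high, so counts of receptors called are descriptions. None of the 65 groups was sorted as NK cells, so the level of these genes in NK cells is not known here.

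Further comparisons used thymocytes, granulocytes and peritoneal cells. The fetal thymocytes (Vg4+ CD24-low, Vg4+ CD24-high and Vg2+ CD24-high gamma delta cells and CD69- double-positive cells) are titled embryonic day 17, although their age label reads 5 weeks, and came from C57BL/6J mice. The CD69+ adult double-positive thymocytes, and the adult double-positive group whose title (T.DP) does not name CD69, came from 6-week-old males with no strain label. Mast cells of skin and peritoneum came from 6-week-old male C57BL/6 mice, and 2 peritoneal arrays carry blood as their source. Blood eosinophils (males of 44 to 50 days, C57BL/6J or C57BL/6) and neutrophils (C57BL/6J males of 6 to 7 weeks or 43 to 48 days) made up another pair. The Gata6 knockout and control F4/80-high peritoneal macrophages came from 9-week-old males of mixed background. The lymph node stroma and endothelium named below came from 6-week-old mice, and some of these groups were taken 6 days after complete Freund's adjuvant (CFA). Other groups entered only the levels and correlations. Among them, spleen B1a cells came from mice of 9 weeks, blood basophils and alveolar macrophages from mice of 6 weeks, cortical thymic epithelium from mice of 8 weeks and fat eosinophils from mice of 45 days.

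In 28 of the 65 groups at least 1 of the 5 receptors reached the median of all values, and in 37 groups none did. Klrd1 reached it in 19 groups, Klrk1 in 12, Klrg1 in 10, Klrc1 in 7 and Klra3 in 2. The 37 groups without any of them included lymph node stroma and endothelium, cortical and MHCII-low thymic epithelium, B1a cells, basophils, eosinophils, neutrophils, mast cells, lung, peritoneal and fat macrophages, double-positive and gamma delta thymocytes, and CD4 cells 1, 24 and 48 h into culture. Across those 37 groups the highest group mean was 101 for Klrd1 and 35.6 for Klrc1.

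Klrg1 was highest in Tbet+ and KLRG1+ CD8 effectors, whose ranges overlapped. It averaged 154 ± 29.0 in Tbet- and 4144 ± 305 in Tbet+ cells (SD, n = 3 each), and 3937 ± 147 in KLRG1+ (SD, n = 2) and 149 ± 12.3 in KLRG1- cells (SD, n = 3), which were sorted on the protein. Below the top pair, with no overlap at each step, came CD4 effectors after LCMV at 616 and CD4 memory cells at 276. Then came GFP+ medullary epithelium at 221 and 8-week MHCII-high epithelium at 219.7, whose ranges overlapped. The other groups at or above the median, besides Tbet- and KLRG1- CD8 cells, were the single 5-week MHCII-high array (153) and knockout GFP+ epithelium (144), and the ranges of these 4 overlapped.

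Klrc1 was high in the 4 CD8 groups after LisOVA (3 titled effector and 1 titled memory) and in CD4 effectors. It averaged 4149 ± 88.7 in KLRG1+ (SD, n = 2) and 3437 ± 291 in KLRG1- cells (SD, n = 3), and 761 ± 112 in Tbet- and 3513 ± 416 in Tbet+ cells (SD, n = 3 each). CD4 effectors, at 972, stood between the Tbet+ and the Tbet- cells and overlapped the Tbet- range. Outside T cells it reached the median only in F4/80-high liver macrophages, at 259 ± 37.2 (SD, n = 3), and CD4 memory cells came next at 228. Its partner Klrd1 was low in those macrophages, at 27.2, 46.9 and 34.1 on the 3 arrays.

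Klrd1 was the most widespread of the 5. It averaged 4166 ± 281 in KLRG1+ (SD, n = 2) and 3236 ± 240.0 in KLRG1- cells (SD, n = 3), and 2406 ± 309 in Tbet- and 3791 ± 661 in Tbet+ cells (SD, n = 3 each). It was also high in control CD8 lymph node cells, at 1453 and 2084 on the 2 arrays, where Klrc1 averaged 18.5. Beyond T cells it reached 249 in CD11b+ and 575 in CD11b- fat dendritic cells and 241 in the blood monocyte group Mo.6+2+.BL.

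Klrk1 was divided between CD8 T cells and myeloid cells. It averaged 1078 ± 144 in KLRG1+ (SD, n = 2) and 1304 ± 369.9 in KLRG1- cells (SD, n = 3), and 527 ± 87.1 in Tbet- and 1169 ± 240.1 in Tbet+ cells (SD, n = 3 each). The KLRG1+, KLRG1- and Tbet+ ranges overlapped. CD11b+ fat dendritic cells averaged 512 and CD11b- ones 959. The other groups that reached the median were, at means between 157 and 355, monocyte groups of blood, lung and lymph nodes (Mo.6+2+.BL, Mo.Lu, Mo.6+2+.SLN, Mo.6+2+.MLN) and both liver macrophage groups. The 3 Mo.6+2+.SLN arrays were uneven, at 183, 556 and 326.

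Klra3 was the most restricted. It averaged 434 ± 63.7 in KLRG1+ cells (SD, n = 2) and 395 ± 71.3 in Tbet+ cells (SD, n = 3), with overlapping ranges. The next groups, CD11b- fat dendritic cells at 79.2 and KLRG1- CD8 cells at 63.8, were low.

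**Figure D1:**
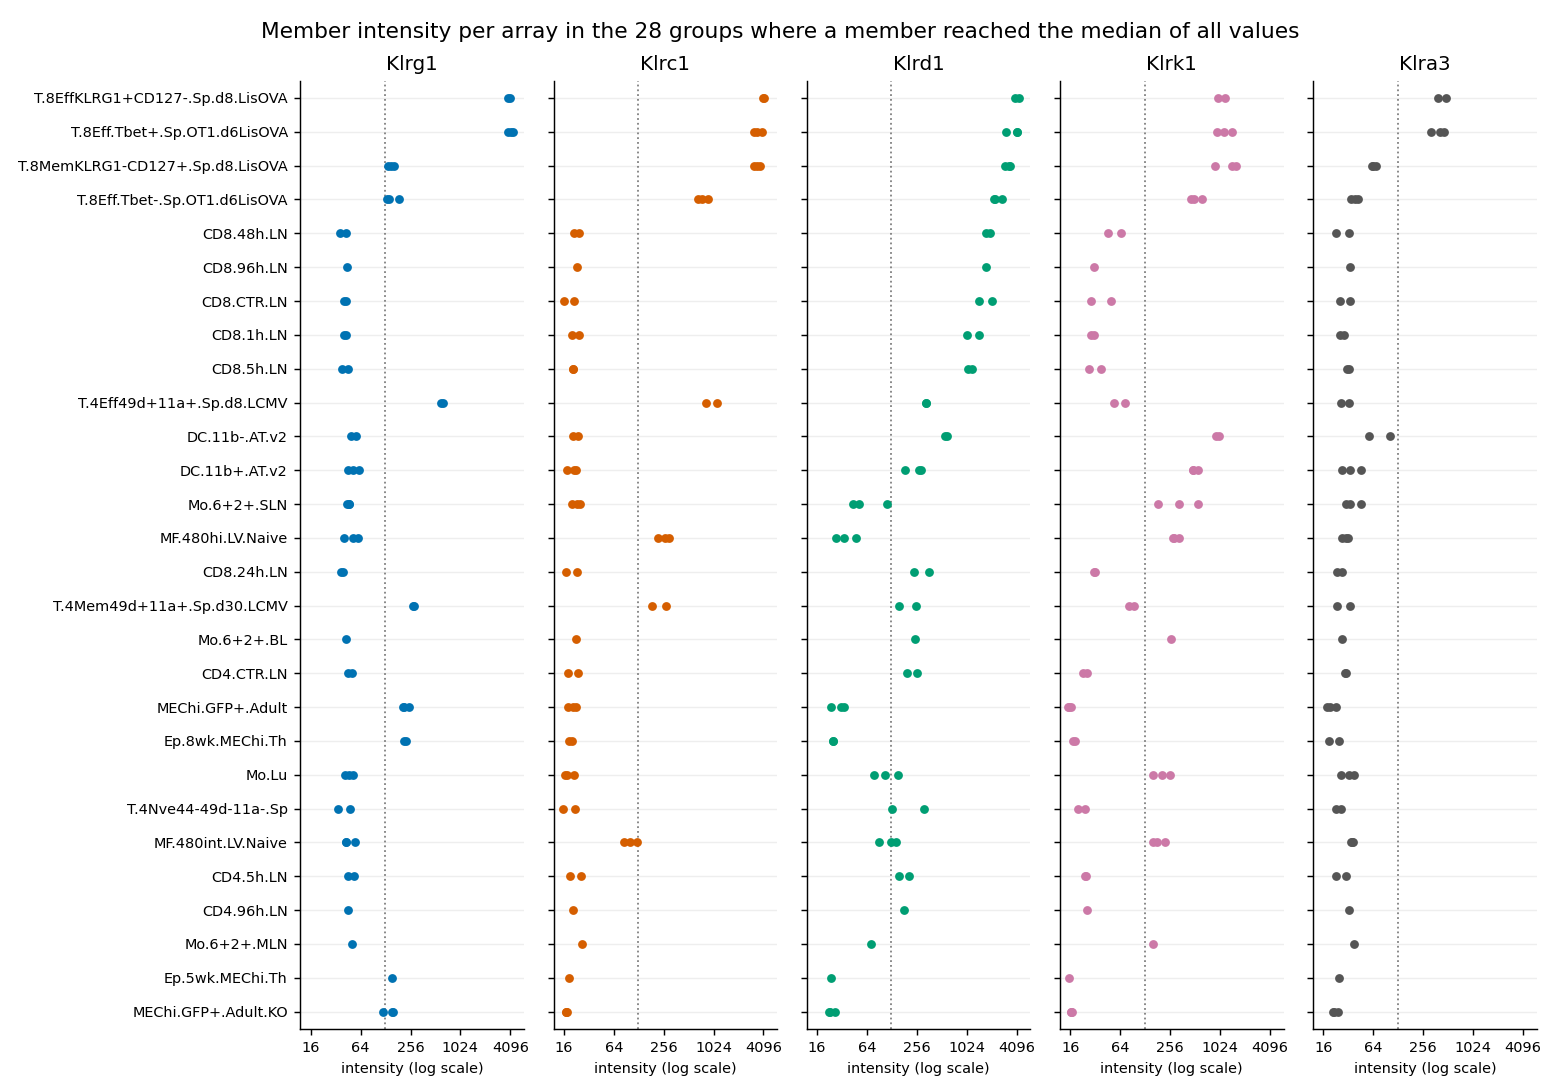
Intensity (log axis) of each receptor on single arrays of every group in which at least 1 of the 5 reached the median of all values, with a line at that median. Klrc1, Klrd1 and Klrk1 stand high in CD8 cells after LisOVA. Klrg1 stands high in the Tbet+ and KLRG1+ groups of these cells and near the line in the Tbet- and KLRG1- groups. Klra3 stands above the line in 2 groups, and Klrk1 and Klrd1 also stand above it in myeloid groups.

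Over the 65 group means on the log2 scale, the receptors differed in the genes they tracked. Klrc1 was most like Klrc2 (Pearson's r = 0.956), Klrc3 (0.954), Gzmk (0.938), Heatr9 (0.931) and Klrb1c (0.903), and Klra3 was most like Klra8 (0.904), Klrb1c (0.867), Klrc3 (0.795), Klrc2 (0.794) and Heatr9 (0.785). Klrc2 and Klrc3 are close relatives of Klrc1, and Klra8 (Ly49H) of Klra3, and whether their transcripts bind each other's probes was not tested. Klrg1 was most like Apobec2 (0.883), Gzmk (0.835), Heatr9 (0.83), Klrc3 (0.823) and Ifng (0.798). Klrd1 was most like Ifi214 (0.861), Prf1 (0.844), Ctsw (0.832), Clcf1 (0.821) and Ms4a4b (0.813). Klrk1 stood apart, with Itgax (0.823), Slamf7 (0.776), Phf11a (0.76), Haao (0.739) and Klri2 (0.731). Among the 5 themselves, Klrg1 and Klrc1 were closest (0.793) and Klrg1 and Klrd1 least alike (0.434). These are descriptions over groups that share cell types and hybridisation background, out of 14721 candidate probe sets.

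Lectin-like receptors were compared between Tbet- and Tbet+ CD8 effectors, which differ by label in T-bet (Tbx21), a transcription factor of effector lymphocytes. All 5 receptors fell in Tbet- cells, with Klrg1 and Klra3 changed most, where 9.68% of the 12837 probe sets tested were called in either direction and 3.96% were called lower. Klra3 passed the filter only through the Tbet+ group, so nothing is read from the number of receptors called. Tbx21 itself read 283 to 308 in Tbet- and 2889 to 3326 in Tbet+ cells, the direction the labels give. In bulk samples such as these, fewer cells of a type and less RNA per cell cannot be told apart.

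Klrg1 read 134, 141 and 187 in Tbet- cells and 4167, 3828 and 4436 in Tbet+ cells. The groups lay far apart, with a log2 difference of -4.76 ± 0.14 (SE; limma adjusted p = 4.3e-08). Klra3 read 34.0, 38.5 and 41.7 in Tbet- cells and 460.1, 407 and 319 in Tbet+ cells. No array overlapped, and every Tbet- value was low (-3.37 ± 0.15, limma adjusted p = 4.6e-07). Klrc1 read 656, 748 and 879 in Tbet- cells and 3978, 3384 and 3176 in Tbet+ cells. It thus stayed well above the median of all values in Tbet- cells, at a log2 difference of -2.21 ± 0.14 (limma adjusted p = 6.5e-06).

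Klrk1, the activating receptor, read 497, 460.0 and 626 in Tbet- cells and 1417, 1149.9 and 938 in Tbet+ cells, and the groups did not overlap (-1.14 ± 0.17, limma adjusted p = 0.0021). Klrd1 read 2204, 2252 and 2761 in Tbet- cells and 4174, 4171 and 3027 in Tbet+ cells. Its groups did not overlap either, but the gap was small (-0.65 ± 0.15, limma adjusted p = 0.026). The Klrd1 call was lost without Tbet- replicate 1 (adjusted p = 0.11), Tbet- replicate 2 (0.13) or Tbet+ replicate 1 (0.067), and in the fit of all 145 arrays (0.11).

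Other lectin-like receptors of the same gene complex fell in part. Of 28 listed, 21 had a probe set, 7 were tested, 3 fell and 0 rose, with a median log2 difference of -0.15 against 0.03 over all tested probe sets. Klrb1c, which encodes NK1.1, averaged 59.8 in Tbet- cells and 693 in Tbet+ cells (-3.47 ± 0.25, limma adjusted p = 1.8e-05). Klrc2, an activating partner of Klrd1, averaged 111 and 539 in the same groups (-2.28 ± 0.12), and Klrc3 35.1 and 169 (-2.27 ± 0.19). Among 16 tested adapters and signalling genes 1 fell, Tyrobp, an adapter of activating receptors, at 135 in Tbet- and 232 in Tbet+ cells (-0.78 ± 0.14, limma adjusted p = 0.0063). Of 18 tested regulators and cytokine receptor chains 3 rose and 7 fell (median log2 difference -0.12). Those that fell were the terminal effector regulators Zeb2 (-4.35) and Prdm1 (-1.61), the migration receptors S1pr5 (-4.57) and Cx3cr1 (-4.07), and Tbx21 itself (-3.44), Il12rb2 (-2.41) and Id2 (-0.69). Id3 (1.85), Il7r (0.95) and Bach2 (0.54), genes of memory-forming cells, rose.

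Marker lists of other cell types differed between the groups too. The 5 NK markers summed to 2342 to 2667 in Tbet- cells and 6276 to 8313 in Tbet+ cells, and 2 of 5 in Tbet- and 1 of 5 in Tbet+ cells were below the median of all values. The list includes Klrb1c, whose product NK1.1 was gated out in both groups. Ncr1, the defining NK receptor gene, was low in both, at 25.5 to 34.8 in Tbet- cells and 29.1 to 37.2 in Tbet+ cells. Summed markers of B cells were 1657 to 1833 in Tbet- cells and 594 to 904 in Tbet+ cells, those of macrophages 426 to 444 and 834 to 1112 in the same order of groups, and those of dendritic cells 2637 to 2781 and 3608 to 4568. In both groups 3 of 4 B cell, 3 of 4 macrophage and 2 of 4 dendritic cell markers were below the median of all values. The part of these markers in the receptor differences was not tested.

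Promoters are shown for the members with an entry in the RefSeq table (GRCm38.p6), because Klrc1, Klrk1 and Klra3 fell together in Tbet- cells. Klrg1 and Klrd1 have no entry there. Each window runs from 250 bases before the gene's start to 50 after it, 5′ to 3′ on the gene's strand, with matches to the motifs searched in capitals.
Klrc1 (chr6:129678924-129679223, minus strand): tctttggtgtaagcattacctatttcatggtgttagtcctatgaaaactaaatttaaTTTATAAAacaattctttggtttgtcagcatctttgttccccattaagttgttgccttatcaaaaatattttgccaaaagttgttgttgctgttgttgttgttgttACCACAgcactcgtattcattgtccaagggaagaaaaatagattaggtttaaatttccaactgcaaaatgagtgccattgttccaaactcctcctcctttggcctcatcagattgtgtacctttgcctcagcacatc
Klrk1 (chr6:129623815-129624114, minus strand): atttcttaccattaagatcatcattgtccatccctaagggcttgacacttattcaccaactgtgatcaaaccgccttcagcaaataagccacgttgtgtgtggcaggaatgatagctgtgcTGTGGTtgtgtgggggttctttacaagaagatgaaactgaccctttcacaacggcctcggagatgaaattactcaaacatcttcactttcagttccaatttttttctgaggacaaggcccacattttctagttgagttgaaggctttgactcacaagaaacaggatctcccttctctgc
Klra3 (chr6:130337577-130337876, minus strand): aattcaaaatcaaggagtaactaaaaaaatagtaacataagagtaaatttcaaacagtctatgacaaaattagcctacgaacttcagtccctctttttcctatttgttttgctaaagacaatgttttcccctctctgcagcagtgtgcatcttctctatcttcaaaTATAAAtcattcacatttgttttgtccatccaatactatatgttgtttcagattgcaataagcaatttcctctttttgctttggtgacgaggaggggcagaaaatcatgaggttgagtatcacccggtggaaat
The motifs, searched on both strands, were the T-box core GGTGTG, the RUNX motif TGTGGT and the TATA motif TATAAA, and 19.0%, 16.8% and 13.6% of the 32851 promoters in the table hold them in that order. The RUNX motif matched in Klrc1 at position -87 (on the opposite strand) and in Klrk1 at -129. The TATA motif matched in Klra3 at -84 and in Klrc1 at -191 and, overlapping it on the other strand, at -193. These letters of the T-box core were in none of the 3 windows, which says nothing of binding by T-bet.

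CD8 cells sorted as KLRG1+ CD127- and titled effectors were compared with KLRG1- CD127+ cells titled memory, on the same day after infection. Besides the sort marker, Klra3 was the receptor that passed the test, and Klrc1, Klrd1 and Klrk1 were high in both groups. Klrg1 read 3832 and 4041 in KLRG1+ cells and 136, 150.0 and 161 in KLRG1- cells, which checks the sort (4.72 ± 0.19). Klra3 read 389 and 479 in KLRG1+ cells and 62.5, 60.9 and 68.1 in KLRG1- cells. The groups did not overlap, and the log2 difference was 2.76 ± 0.20 (limma adjusted p = 0.00061), between 2.61 and 2.91 with any 1 array left out. Of all probe sets tested, 0.382% were called, and of the 4 receptors other than the sort marker 1 was. Klra3 passed the filter only through the KLRG1+ group, so nothing is read from that count.

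Klrc1 read 4211 and 4086 in KLRG1+ cells and 3135, 3715 and 3462 in KLRG1- cells, a log2 difference of 0.28 ± 0.19 that did not pass (limma adjusted p = 0.83). Klrd1 read 4365 and 3967 in KLRG1+ cells and 2971, 3439.8 and 3297 in KLRG1- cells (0.37 ± 0.19, adjusted p = 0.74). Neither of these pairs of groups overlapped, though the gaps were small. Klrk1 read 976 and 1180.0 in KLRG1+ cells and 890.3, 1603 and 1419 in KLRG1- cells, with overlap (-0.24 ± 0.27, adjusted p = 0.91).

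Of the other lectin-like receptors, 8 were tested and 0 passed limma's test (4 had an unadjusted p under 0.05), with a median log2 difference of 0.17 against -0.04 over all tested. Klra8, the close relative of Klra3, read 143 to 286 in KLRG1+ cells and 21.1 to 51.5 in KLRG1- cells. Among 18 tested regulators, Zeb2 rose (1532 in KLRG1+ and 416 in KLRG1- cells, 1.88 ± 0.20, limma adjusted p = 0.0071), as did Cx3cr1 (1.89) and Prdm1 (1.59). Il7r, which encodes the sort marker CD127, was lower (-4.18). Summed NK markers were 6872 to 6919 in KLRG1+ cells and 2364 to 3011 in KLRG1- cells, and Ncr1 read 38.7 to 195 and 25.0 to 54.1 in the same order, so 1 of the 2 KLRG1+ arrays exceeded the median of all values for that gene. The part of those markers in the Klra3 difference was not tested.

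**Figure D2:**
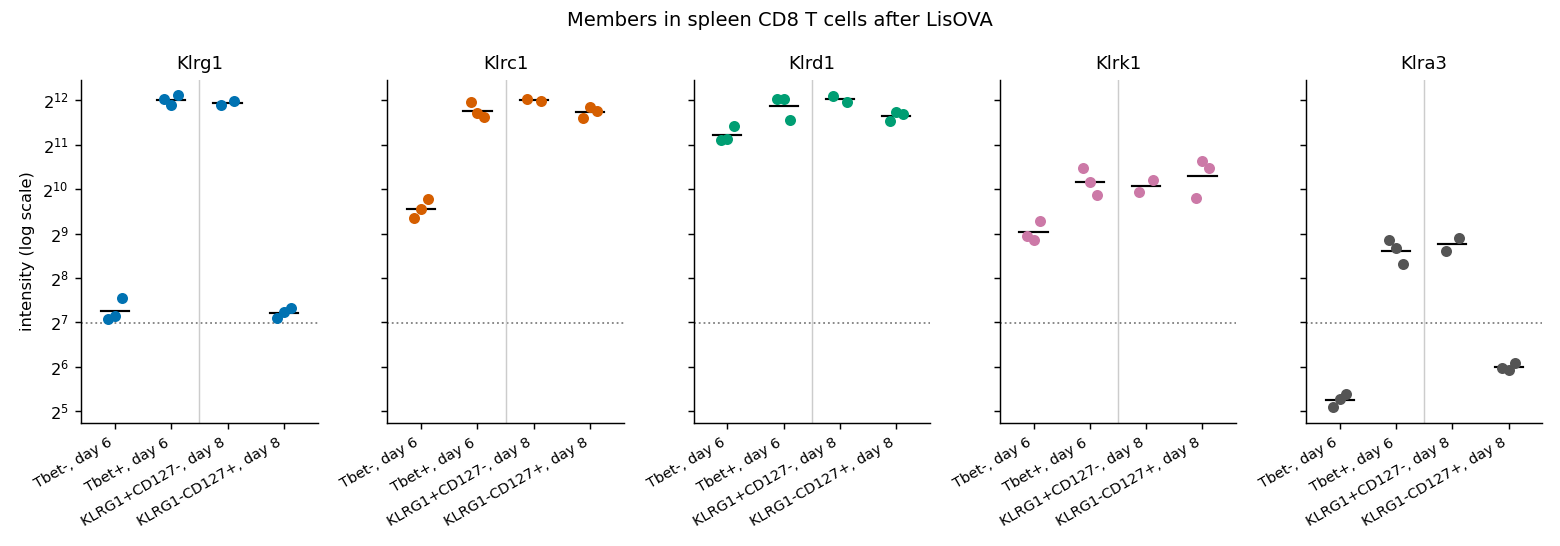
Intensity (log axis) of the 5 receptors on each array of the 4 CD8 groups after LisOVA (3 titled effector and 1, the KLRG1- cells, titled memory), with a bar at each group mean. Klrg1 and Klra3 are lower in Tbet- and KLRG1- cells than in Tbet+ and KLRG1+ cells without overlap, while Klrc1, Klrd1 and Klrk1 remain above the median of all values in all 4 groups.

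Among CD4 T cells after LCMV, Klrg1 and Klrc1 were the receptors that changed, 2 of the 3 tested. These 2 were low in naive cells and passed the filter through the other groups, so nothing is read from that count. Both were higher in effectors and in memory cells than in naive cells, and lower in memory cells than in effectors. Called probe sets made up 32.2% of those tested for effectors over naive cells, 14.5% for memory over naive cells and 8.6% for memory cells over effectors. Klrd1 passed in none of the 3 comparisons. Klrk1 and Klra3 were low in all 3 groups and were not tested. These comparisons share their groups, so they are not independent of each other.

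Klrg1 read 47.5 and 34.4 in naive cells, 627 and 605 in effectors and 273 and 279 in memory cells. No group overlapped another, and the log2 difference from naive cells was 3.93 ± 0.16 in effectors (limma adjusted p = 5.3e-07) and 2.77 ± 0.16 in memory cells (adjusted p = 9.4e-06). Memory cells differed from effectors by -1.16 ± 0.16 (adjusted p = 0.0025). Klrc1 read 21.6 and 15.5 in naive cells, 1114 and 829 in effectors and 183 and 272 in memory cells. The 3 groups again stood apart, at 5.71 ± 0.23 for effectors over naive (limma adjusted p = 5.3e-07), 3.61 ± 0.23 for memory over naive (adjusted p = 1.7e-05) and -2.11 ± 0.23 for memory over effectors (adjusted p = 0.00074).

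Klrd1 read 127 and 315 in naive cells, 331 and 332 in effectors and 156 and 250.3 in memory cells. The 2 naive arrays lay far apart and overlapped the memory arrays, and the difference for effectors over naive was 0.73 ± 0.37 (limma adjusted p = 0.17). Without naive replicate 3 it was 1.38 and passed (adjusted p = 0.001). Memory over effectors was -0.75 ± 0.37 (adjusted p = 0.25), and with the replicate number as a block it passed (adjusted p = 0.0075), though the 2 shared numbers do not show a pairing. Klrk1 stayed low, at 23.9 and 19.8 in naive cells, 72.7 and 53.9 in effectors and 81.5 and 95.1 in memory cells.

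Of the other lectin-like receptors, 5 were tested. In effectors 2 rose and 1 fell relative to naive cells, and in memory cells 2 rose and 0 fell (median log2 differences -0.09 and 0.11, against 0 and -0.01 over all tested). Klrb1f, a receptor for Clec2i, averaged 65.8 in naive cells, 1029 in effectors and 802 in memory cells (3.97 and 3.60 over naive in effectors and memory cells). Klrc2 averaged 27.3, 213 and 92.1 in that order, and was lower in memory cells than in effectors (-1.30 ± 0.32, limma adjusted p = 0.037). Tbx21 averaged 80.6 in naive cells, 1993 in effectors and 1403 in memory cells. The listed gene that fell in effectors was Clec2d (-0.50), a ligand of Klrb1b. Of 19 tested regulators 11 rose and 4 fell in effectors over naive cells, 8 rose and 2 fell in memory over naive cells, and 2 rose and 5 fell in memory cells over effectors. Summed NK markers were 578 to 641 in naive cells, 921 to 933 in effectors and 447 to 549 in memory cells, with 3 of 5 below the median of all values in each. Summed dendritic cell markers were 790.1 to 988 in naive cells, 1478 to 1729 in effectors and 1329 to 1352 in memory cells. The part of these markers in the receptor differences was not tested.

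**Figure D3:**
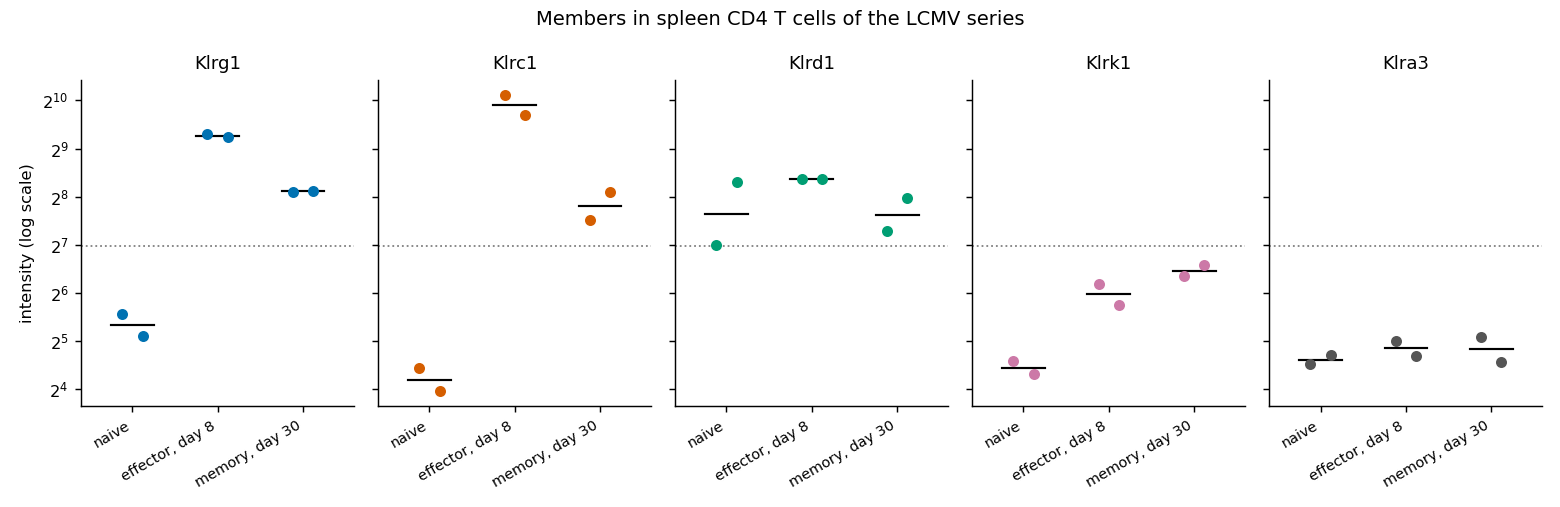
Intensity (log axis) of Klrg1, Klrc1 and Klrd1 on each array of naive CD4 cells, effectors on day 8 and memory cells on day 30. Klrg1 and Klrc1 are lowest in naive cells and highest in effectors, without overlap. The 2 naive arrays of Klrd1, at 127 and 315, lie on either side of the memory arrays and below the effector arrays.

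In bead-stimulated lymph node cells only Klrd1 passed the filter on low values, and the other 4 receptors were not tested at any time. In CD8 cells Klrd1 fell by 24 h and was back near the control level at 48 h. In CD4 cells, where it started lower, it fell by 24 h and was still lower at 48 h. The times share 1 control group per lineage.

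In CD8 cells Klrd1 read 1453 and 2084 in controls, 1042 and 1432 at 1 h, 1186 and 1055 at 5 h, 233 and 357 at 24 h, 1762 and 1966 at 48 h and 1765 on the single array at 96 h. The 24 h arrays were the lowest and overlapped no other time. Over control, the log2 difference was -0.51 ± 0.23 at 1 h (limma adjusted p = 0.17), -0.64 ± 0.23 at 5 h (0.048), -2.59 ± 0.23 at 24 h (2.2e-07) and 0.10 ± 0.23 at 48 h (0.82). The call at 5 h was lost without 5 h replicate 1 (adjusted p = 0.083), 5 h replicate 2 (0.22) or control replicate 2 (0.37), and with no filter (0.075).

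The 24 h level was also below that at 5 h (-1.95 ± 0.23, limma adjusted p = 1e-05), and the 48 h level was above that at 24 h (2.69 ± 0.23, adjusted p = 4.1e-07). These comparisons with the 24 h arrays were added to the planned ones and share those arrays. Their tests are no independent evidence of a fall and return. Called probe sets made up 14.5%, 28.9%, 43.3% and 25% of those tested at 1, 5, 24 and 48 h over control, 25.3% for 24 over 5 h and 32.7% for 48 over 24 h. A change at any 1 time was thus common among all genes.

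In CD4 cells Klrd1 read 193 and 255 in controls, 108 and 94.5 at 1 h, 155 and 207 at 5 h, 38.6 and 32.9 at 24 h, 74.6 and 68.3 at 48 h and 178 on the single array at 96 h. All arrays at 1, 24 and 48 h were low and below both controls. The log2 difference from control was -1.13 ± 0.23 at 1 h (limma adjusted p = 0.0025), -0.31 ± 0.23 at 5 h (0.36), -2.64 ± 0.23 at 24 h (1.4e-07) and -1.64 ± 0.23 at 48 h (4.7e-05). The shares of probe sets called at these times were 20.1%, 31.2%, 53.4% and 34.5%.

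Between lineages, Klrd1 was higher in CD8 than in CD4 controls by 2.97 ± 0.23 on the log2 scale (limma adjusted p = 4.6e-07), where 3.09% of probe sets were called. The change from control was compared between lineages directly. At 48 h it was higher in CD8 than in CD4 cells by 1.73 ± 0.32 (limma adjusted p = 0.021, with 0.527% of probe sets called). At 1 h the difference between lineages was 0.62 ± 0.32 (adjusted p = 1), at 5 h -0.33 ± 0.32 (0.89) and at 24 h 0.04 ± 0.32 (0.97), with 0.0971%, 0.368% and 0.659% of probe sets called. The call at 48 h was lost in 6 of the 8 fits with 1 array left out (adjusted p up to 0.13). Hcst, the adapter of Klrk1, was lower at 24 h than in controls in both lineages (-1.30 in CD8 and -1.45 in CD4 cells). Klrk1 itself was low in all these groups.

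Marker lists of NK cells, T cells, dendritic cells and B cells moved over the same times. Summed NK markers were 1248 to 1397 in controls, 659.7 to 723 at 24 h and 518 to 588 at 48 h in CD8 cells. In CD4 cells they were 584 to 620.0 in controls, 295 to 309 at 24 h and 283 to 301 at 48 h. They were thus lower than in controls at both times, in both lineages. Summed T cell markers were 18197 to 20830.0 in controls, 13024 to 16193 at 24 h and 18566 to 20970.0 at 48 h in CD8 cells, and 20498 to 23822 in controls, 14617 to 16170.0 at 24 h and 21709 to 22262 at 48 h in CD4 cells. Summed dendritic cell markers were 1784 to 1896 in controls, 1103 to 1207 at 24 h and 2392 to 2628 at 48 h in CD8 cells, and 691 to 760.4 in controls, 494 to 667 at 24 h and 1244 to 1502 at 48 h in CD4 cells. Summed B cell markers were 598 to 676 in controls, 470 to 475 at 24 h and 816 to 893 at 48 h in CD8 cells. In CD4 cells the B cell sums were 281 to 288, 263 to 264 and 310 to 370 in the same order. The part of these lists in the Klrd1 differences was not tested.

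**Figure D4:**
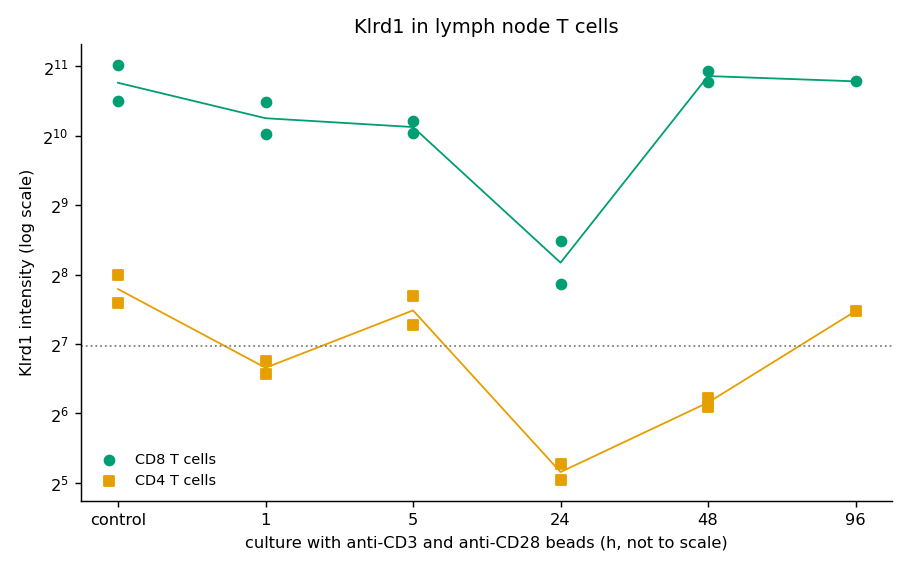
Klrd1 intensity (log axis) on each array against hours of culture with anti-CD3 and anti-CD28 beads, for CD8 and CD4 lymph node cells, with lines through the group means and the control at the left. Both lineages are lowest at 24 h, and at 48 h the CD8 arrays lie at the control level while the CD4 arrays lie below it.

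In visceral fat, Klrk1 and Klrd1 were above the median of all values in both dendritic cell groups and low in macrophages. Klrd1 was lower in CD11b+ than in CD11b- dendritic cells. Klrd1 read 289.8, 182 and 275 in DC.11b+ and 562 and 589 in DC.11b-. The groups did not overlap (-1.24 ± 0.31, limma adjusted p = 0.028, with 15.7% of probe sets called), but the call was lost with quantile normalization (-1.02, adjusted p = 0.084) and without DC.11b+ replicate 3 (0.062), DC.11b- replicate 1 (0.15) or DC.11b- replicate 3 (0.17). Klrk1 read 564, 490.4 and 482 in DC.11b+ and 911 and 1006 in DC.11b-, also without overlap, and did not pass (-0.91 ± 0.47, adjusted p = 0.22). In the fit of all arrays it did (adjusted p = 0.005).

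Fat macrophages were lower for both. Klrd1 read 54.0, 29.4 and 28.0 in MF.AT, against the DC.11b+ values above (-2.78 ± 0.28, limma adjusted p = 0.00038), and Klrk1 read 85.0, 25.4 and 23.5 (-3.79 ± 0.42, adjusted p = 0.00068). All MF.AT values were low and none overlapped DC.11b+, in a comparison where 15.6% of probe sets were called. All 5 NK markers were below the median of all values in the dendritic groups, with sums of 223 to 269 in DC.11b+ and 228 to 257 in DC.11b-, and summed T cell markers were 403 to 507 and 398 to 497. Summed dendritic cell markers were 401 to 1188 in MF.AT and 2333 to 3645 in DC.11b+. Summed macrophage markers were 12283 to 14843 and 6022 to 7642 in the same order. The part of these lists in the MF.AT differences was not tested.

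Other lectin-like receptors also differed between the fat dendritic groups. Of 11 tested, 3 were higher and 4 lower in DC.11b+ than in DC.11b- (median log2 difference -0.51, against -0.07 over all tested). Klrb1a averaged 408 in DC.11b+ and 19.5 in DC.11b- (4.21 ± 0.72, limma adjusted p = 0.0046), and Klra2 (Ly49B) averaged 419 and 29.8 in that order (3.80 ± 0.47). In the other direction, Klrb1b, a receptor for Clec2d, averaged 515 in DC.11b+ and 2634 in DC.11b- (-2.35 ± 0.34), Klra5 (Ly49E) 17.8 and 264 (-3.90 ± 0.18), and Klra17 (Ly49Q) 35.7 and 159 (-2.15 ± 0.39). The remaining pair, Clec2i (1.32) and Klrg2 (-0.57), changed less. Klrd1 and these receptors moved together with the dendritic and macrophage marker sums given above, whose part in the differences was not tested.

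F4/80-high liver macrophages carried more Klrc1 and Klrk1 than F4/80-intermediate ones. Klrc1 read 221, 295 and 262 in high and 84.7, 121 and 99.9 in intermediate cells. The groups did not overlap (1.35 ± 0.16, limma adjusted p = 9e-04). Klrk1 read 278, 284 and 325 in high and 178, 225 and 158 in intermediate cells, again without overlap (0.67 ± 0.15, adjusted p = 0.014). That call was lost without high replicate 3 (adjusted p = 0.063) or intermediate replicate 3 (0.051). Of all probe sets tested, 20.2% were called. Klrc1 passed the filter only through the F4/80-high group, so nothing is read from the number of receptors called.

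Klrd1 did not pass the filter, at 27.2, 46.9 and 34.1 in high and 90.3, 126 and 142 in intermediate cells. All 5 NK markers were low in both groups, and their sum was lower in the cells with more Klrc1, at 217 to 244 in high and 272 to 308 in intermediate cells. Ncr1 read 25.1 to 42.4 in high and 57.8 to 79.5 in intermediate cells, and summed T cell markers 398 to 418 and 572 to 727. Of the other lectin-like receptors of the complex 6 were tested, and 0 were higher and 3 lower in high cells, which were Klri1 (-1.73), Klrb1f (-1.39) and Cd69 (-1.67). The median log2 difference of the list was -0.81, against 0.07 over all tested. Summed macrophage markers were 18641 to 20168 in high and 12313 to 14125 in intermediate cells, and summed dendritic cell markers 1005 to 1319.5 and 3045 to 4217, and their part in the receptor differences was not tested.

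In the lung, Klrk1 was above the median of all values in monocytes and low in CD11b+ macrophages. It read 21.6, 26.3 and 18.3 in CD11b+ lung macrophages and 253, 159 and 202 in lung monocytes, far apart (-3.20 ± 0.29, limma adjusted p = 1e-07), where 49.6% of probe sets were called. Klra2 (Ly49B) averaged 37.5 in these macrophages and 2749.9 in lung monocytes (-6.24). Summed dendritic cell markers were 300 to 362 in these macrophages and 1856 to 2407 in lung monocytes. Summed macrophage markers were 16022 to 16521 and 10396 to 11754 in the same order, and the part of both lists in these differences was not tested. The Mo.6+2-.BL blood monocytes read 119.9 and 80.9 for Klrk1, below all 3 lung monocyte arrays. The difference of lung over blood monocytes did not pass (1.03 ± 0.33, adjusted p = 0.065, with 7.69% of probe sets called), and it passed in the fit of all arrays (0.012).

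**Figure D5:**
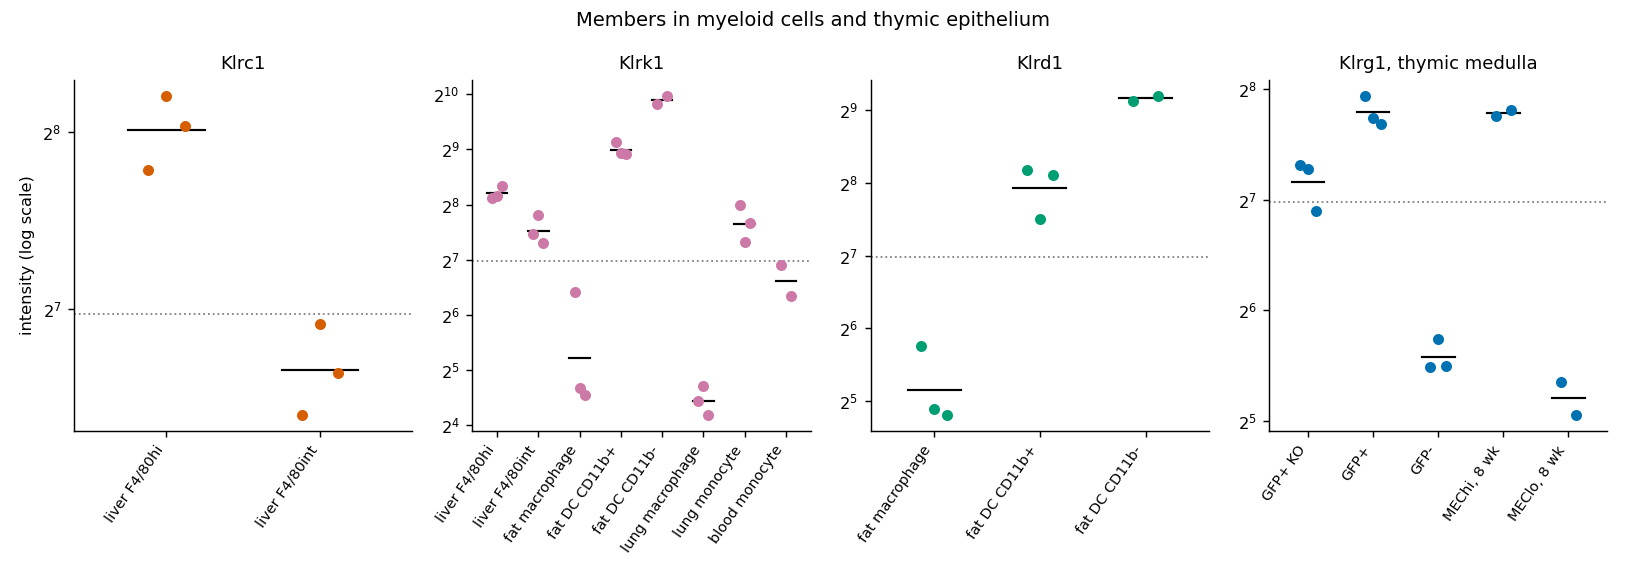
Intensity (log axis) on each array of Klrk1, Klrd1 and Klrc1 in fat, liver, lung and blood myeloid groups, and of Klrg1 in thymic epithelium. Klrk1 is above the median of all values in dendritic cells, liver macrophages and lung monocytes, and Klrg1 is above it in GFP+ and MHCII-high epithelium.

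Klrg1 was also above the median of all values in some groups of medullary thymic epithelium, higher in GFP+ than in GFP- and in MHCII-high than in MHCII-low cells. These comparisons were added because the Klrg1 levels had been seen, and their tests are no independent evidence. Klrg1 read 159, 155 and 119 in knockout GFP+ cells, 245, 214 and 205 in GFP+ cells and 44.8, 53.5 and 45.3 in GFP- cells. No group overlapped another. Knockout GFP+ over GFP+ cells differed by -0.63 ± 0.13 (limma adjusted p = 0.0077) and GFP+ over GFP- cells by 2.21 ± 0.13 (adjusted p = 1.4e-06), where 19.1% and 49.4% of probe sets were called.

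At 8 weeks Klrg1 read 216 and 224 in MHCII-high and 40.9 and 33.3 in MHCII-low medullary epithelium (2.57 ± 0.13, limma adjusted p = 1.2e-07, with 38.2% of probe sets called). At 5 weeks the single MHCII-high array read 153 and the MHCII-low arrays 36.4 and 37.8. Every MHCII-high value thus exceeded every MHCII-low value. At 8 weeks summed markers of T cells were 626 to 654 in MHCII-high and 433 to 434 in MHCII-low cells, of NK cells 342 to 345 and 184 to 203 in the same order, of B cells 1064 to 1103 and 559.8 to 731, of macrophages 644 to 679 and 312 to 356, and of dendritic cells 460.0 to 468 and 266 to 289. Each list was higher in the cells with more Klrg1, and its part in the difference was not tested. At 5 weeks summed T cell markers were 573 to 1139.8 in knockout GFP+, 524 to 1001 in GFP+ and 586 to 1048 in GFP- cells, and summed NK markers 339 to 384, 279.6 to 311 and 229 to 284 in that order. Aire, the regulator of ectopic gene expression in this epithelium, read 3894 to 4387 in knockout GFP+, 3605 to 5203 in GFP+ and 495 to 772 in GFP- cells.

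Of 16 listed ligands of these receptors 6 had a probe set and 5 were tested in the same cells. For GFP+ over GFP- cells 2 were higher and 2 lower, with a median log2 difference of -0.01 against 0.06 over all tested. For knockout GFP+ over GFP+ cells 0 were higher and 1 lower, with a median of -0.15 against 0.05. Raet1d, a ligand of Klrk1, averaged 137 in knockout GFP+, 232 in GFP+ and 45.9 in GFP- cells. The log2 difference was -0.78 ± 0.20 for knockout over GFP+ cells (limma adjusted p = 0.019) and 2.39 ± 0.20 for GFP+ over GFP- cells (adjusted p = 7.1e-06). Cdh1, the E-cadherin ligand of Klrg1, averaged 2826 in GFP+ and 3896 in GFP- cells (-0.46 ± 0.10, limma adjusted p = 0.0039). The cadherin genes Cdh2 (-1.49) and Cdh4 (0.37) were the other genes of the list called for GFP+ over GFP- cells. Klrk1 was low in all of these groups.

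None of the 5 receptors reached the filter in the other comparisons, which were 5 between thymocyte groups, skin over peritoneal mast cells, Gata6 knockout over control peritoneal macrophages, and eosinophils over neutrophils. In these comparisons 40.3%, 35.9%, 18.8%, 0.774%, 50%, 31.3%, 6.69% and 35.4% of probe sets were called. In fetal Vg4+ gamma delta thymocytes Klrd1 read 66.4 and 123 in CD24-low and 32.7, 40.5 and 35.5 in CD24-high cells. These groups did not overlap but all values were low.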

How the data were processed

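RNA from 145 samples of sorted mouse cells was measured on Affymetrix arrays. The authors' deposited values are linear intensities of 24922 probe sets on each array, made with Affymetrix Power Tools and RMA per the submitters' processing notes, with versions not given in the sources used here. Log2 was taken here of these deposited intensities. Gene names came from the platform annotation. Groups followed the sample labels. Comparisons (31 planned, 5 added later) were tested two-sided with limma 3.58.1 (lmFit, eBayes) in R 4.3.3, in 13 fits of related groups. Probe sets were tested where 1 or more group means were at or above the median value of the fit, and called at a Benjamini-Hochberg adjusted p under 0.05 over the fit. Errors are SD of arrays or SE of log2 differences, and the number of arrays limits precision. The procedure was tested on simulated data. The 5 receptors and the gene lists were chosen with earlier results of these data known. Listed genes are named when called, up to 6 per list, or when they are a ligand, partner or adapter. Replicate numbers paired arrays (r of deviations above 0.1 in every pair) in the liver and the GFP+ and GFP- comparisons. The same held for each pair of bead groups compared (r from 0.18 to 0.6), except CD4 cells at 24 h over control (-0.02). With 2 arrays per group, each bead comparison gives only 1 such value. The main tests did not use the pairing. Alternatives covered filters, normalization, a pseudocount of 32, all arrays in 1 fit, trend and robust fitting, the replicate block and each array left out.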

Additional observations from a re-analysis of the deposited data

Results flagged for a closer look

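The response of Klrd1 to 48 h of stimulation differed between lineages by a test of the difference itself. CD8 cells read 1762 and 1966 at 48 h, against 1453 and 2084 in controls, and CD4 cells read 74.6 and 68.3 at 48 h, against 193 and 255 in controls. The CD8 response exceeded the CD4 response by 1.73 on the log2 scale (limma adjusted p = 0.021). With 1 array left out the value lay between 1.47 and 1.99, and the call was lost in 6 of these fits.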

How the results depend on the processing

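Over all alternatives, the receptors' log2 differences kept direction and side of the threshold 488 times, lost the call 21 times, gained it 4 times and changed sign 11 times. Counts of receptors called moved as follows. With no filter the count was 0 for CD8 cells at 5 h over control (1 otherwise), 2 for CD8 cells at 48 over 24 h (1), 3 for CD24-low over CD24-high gamma delta cells (0), 2 for DC.11b+ over DC.11b- (1), 2 for lung macrophages over monocytes (1) and 3 for GFP+ over GFP- epithelium (1). With the filter at the 75th percentile it was 0 for the liver (2), 0 for lung macrophages over monocytes, 0 for GFP+ over GFP-, 0 for knockout over GFP+ and 0 for MHCII-high over MHCII-low epithelium (1 each). Quantile normalization gave 0 for DC.11b+ over DC.11b-. All arrays in 1 fit gave 0 for CD8 cells at 5 h, 2 at 48 over 24 h, 2 for gamma delta cells, 3 for DC.11b+ over DC.11b-, 2 for lung macrophages over monocytes, 1 for lung over blood monocytes and 2 for eosinophils over neutrophils (0 each for the last 2). Counts that moved less were those of Tbet- over Tbet+ cells (5), which was 4 with all arrays in 1 fit, and of CD4 effectors over naive cells (2), which was 3 with no filter and with all arrays in 1 fit. Leaving out 1 array gave counts of 4 to 5 for Tbet- over Tbet+ cells, of 2 to 3 for CD4 effectors over naive cells, of 1 to 3 for the liver, of 0 to 1 for CD8 cells at 5 h, for the CD8 minus CD4 response at 48 h, for gamma delta cells and for DC.11b+ over DC.11b-, and of 1 to 2 for lung macrophages over monocytes. The filters and the left-out arrays change by construction which genes or how many arrays are tested, and for the other settings the cause was not tested.

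All sign changes were of Klrd1 differences near 0 that were not called. CD8 cells at 48 h over control gave -0.004 with quantile normalization and -0.163 to 0.357 with 1 array left out. The CD8 minus CD4 response at 24 h gave -0.18 with quantile normalization, -0.56 with a pseudocount of 32 and -0.263 to 0.353 with 1 array left out. CD4 memory over naive cells gave 0.036 with quantile normalization and -0.672 to 0.636 with 1 array left out. With the replicate block, Klrd1 in CD4 memory over effector cells was -0.75 (limma adjusted p = 0.0075), and the block changed no call in the paired liver and GFP comparisons. In the bead series no Klrd1 call over control at 1, 24 or 48 h changed under any alternative, the block included. No other probe set of a receptor could be tried, since each has 1 with its symbol alone. Low intensities hold background signal, so differences of low genes are compressed and a low reading does not show that a gene is silent.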

Other observations

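Where the 5 receptors were low, other lectin-like genes of the NK gene complex differed between groups that were compared. Of 4 tested in fetal Vg4+ gamma delta thymocytes, 1 was higher and 2 lower in CD24-low than in CD24-high cells, with 18.8% of all probe sets called. Klrb1f averaged 1942 in CD24-low and 304 in CD24-high fetal Vg4+ gamma delta thymocytes (2.69 ± 0.22, limma adjusted p = 1.6e-08), while Clec2d (-0.71) and Cd69 (-0.67) were lower. For eosinophils over neutrophils 2 of 7 tested were higher and 2 lower, with 35.4% of all probe sets called. Klrb1f averaged 614 in blood eosinophils and 69.6 in neutrophils (3.20 ± 0.29), and Clec2i was higher in eosinophils too (1.05). Lower were Klra17 (Ly49Q), at 23.1 in eosinophils and 1320.0 in neutrophils (-5.83 ± 0.16), and Klra2 (Ly49B), at 139.7 and 1277 (-3.22 ± 0.18). In skin over peritoneal mast cells 2 of 4 tested were higher and 2 lower, with 31.3% of all probe sets called. Clec12b, an inhibitory lectin-like receptor, averaged 1877 in skin and 76.8 in peritoneal mast cells (4.65 ± 0.22, limma adjusted p = 6.4e-08), although 2 arrays of the peritoneal group carry blood as their source. Cd69 was also higher (1.52), and Clec2d (-1.05) and Clec2i (-0.69) were lower. In CD69+ over T.DP adult double-positive thymocytes 3 of 4 tested were higher and 0 lower, with 40.3% of all probe sets called, and 1 of the 3 was Cd69, the sort marker (3.59). Clec2d, the ligand of Klrb1b, averaged 2888 in CD69+ and 546 in T.DP cells (2.40 ± 0.17, limma adjusted p = 5.5e-10), and Clec2i differed by 0.60.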
